A study of Mus musculus with 15 samples.

Results

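The probes described here were those of large intergenic noncoding RNAs (lincRNAs) that were well above background on every array of a study of mouse liver. On the array, 16251 probes carry a lincRNA region as their description, and the members were chosen by the detection flag of their spot. A probe was taken when the scanner software called its 1 spot well above background on all 15 arrays, and 1013 probes (6.23%) met this. They came from 652 annotated regions with a strand, which merge into 504 loci where regions overlap on either strand. Of the loci, 204 held more than 1 of the probes and 77 held probes on both strands. All 1013 probe sequences differ from each other, 552 lie on the forward and 461 on the reverse strand of the mouse build mm9, and 52 overlap another of the probes in position. Probes of 1 locus share their RNA, and they are not replicates of a condition.

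LincRNAs are transcripts without a long reading frame whose genes lie between protein-coding genes. A region on this array names a stretch of genome and a strand, and not a transcript with known ends. Some well-studied members stay in the nucleus and form part of nuclear bodies, others act near their own gene, and for most no function is known. Most are present at low levels in any single tissue.

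Liver RNA came from male CD1 mice in 3 groups, and the labelled tissue was liver, described as DEN-induced hepatocellular carcinoma in the groups given the carcinogen. Group C received saline and was the control, group T received diethylnitrosamine (DEN), a carcinogen that liver cells activate, and group G received DEN and then Gas1, a growth-arrest gene. By the study's methods, DEN or saline was injected at postnatal day 15. Plasmid was delivered weekly by hydrodynamic gene delivery (HGD), a fast injection of a large volume into the tail vein, from week 28 to week 34, and the mice were killed at week 35. All 3 groups received HGD with 50 µg of plasmid, which was the empty pcDNA3/CAG in C and T and pcDNA3/CAG-HAGas1 in G. The CAG promoter is active in most cell types, and HGD reaches only part of the liver cells, so a share of the cells in G carried the plasmid. The sample labels give an age of 10 weeks, which differs from that schedule. The 15 arrays were taken as 13 mice, 3 in C, 4 in T and 6 in G, because arrays C3 and C4 carry 1 RNA code, as do T4 and T5, and each pair was averaged. That a shared code means 1 mouse is not stated in the sources used here, and with 15 separate samples the calls between T and C given below were 85 in place of 32. Over probes well above background on all arrays, the SD of the difference within these pairs was 0.198 in C and 0.200 in T, below that of any other pair of the same group (0.343 and 0.253 at the lowest). Over the lincRNA probes alone the pair of T, at 0.252, was not the closest of its group (0.216).

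The detection rule leaned on the dimmest arrays. The number of lincRNA probes well above background ranged from 1314 to 4537 over the arrays of C, from 1986 to 2671 in T and from 1595 to 5080 in G, and arrays C3 and C4, of 1 RNA code, gave 4537 and 2409. Among the other probes of the array, 12126 of 39430 (30.8%) met the same rule. No array saw 9404 of the lincRNA probes and 199 were seen on all arrays but 1, of which 108 were missed only on C2 and 46 only on C1. The mean level of the members ran from 6.47 to 16.24 on the log2 scale with a median of 7.60, and the median of those 199 probes was 6.68. The members with the lowest value on any single array, A_30_P01018960, A_30_P01033670 and A_30_P01032621, read 6.16, 6.20 and 6.21 there. The 3 probes just outside the rule with the highest mean, A_30_P01031894, A_30_P01028387 and A_30_P01030591, lay at 7.56, 7.51 and 7.48. Of the 163 probes missed on 1 array of C only, 112 had a higher mean in T than in C, and of the 36 missed on 1 array of T or G only, 1 had. Among these 199 probes, more were thus left out through an array of C than through one of T or G. Over all lincRNA probes outside the rule, 7288 had a higher and 7950 a lower mean in T than in C.

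**Figure D1:**
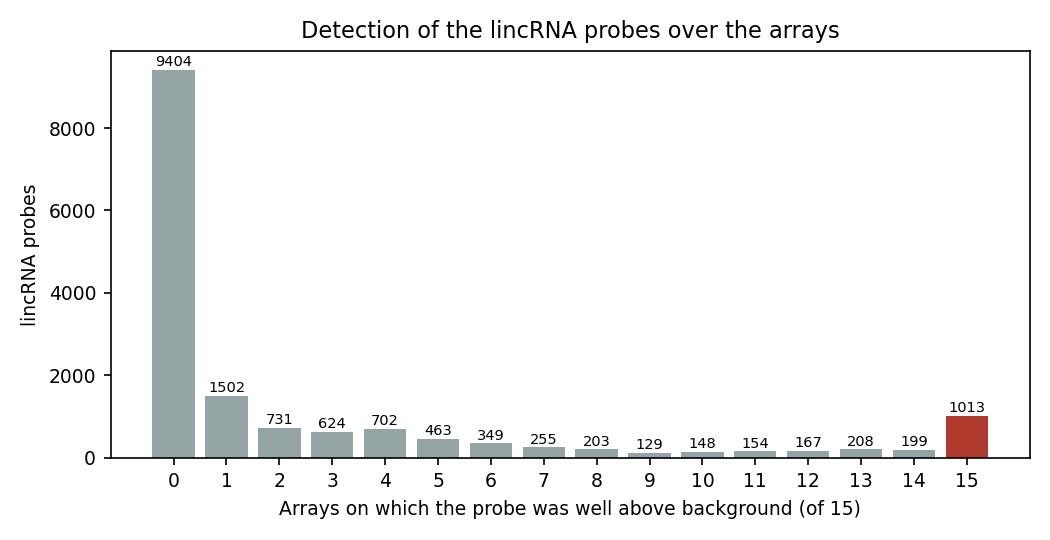
Number of lincRNA probes (vertical axis) by the number of arrays, of 15, on which the probe was well above background (horizontal axis). The bar at 0 holds 9404 probes and the coloured bar at 15 holds the 1013 probes described here.

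All 8 hepatocyte genes that were looked at were well above background on all arrays, and 1 of them, Ttr, was called between T and C. Intensities of 4 erythroid genes were summed before the log2 was taken. This gave 12.96 to 13.73 in C, 13.996 to 14.38 in T and 13.23 to 15.18 in G. Between T and C, Hbb-b1, Hba-a1 and Slc4a1 differed by 1.89, 1.38 and 0.25 and Alas2 by -0.14. None of the 4 was called, and their part in the results below was not tested. In the lists for cholangiocytes, macrophages, B cells, T cells, exocrine pancreas and stellate or endothelial cells, the 31 genes differed by -0.31 to 0.84 on the log2 scale between T and C, and none passed limma's adjusted p in any comparison. The 3 probes of Gas1 itself differed by -0.13 to 0.29 on the log2 scale between G and T, with adjusted p-values from 0.450 to 0.922 (limma), and whether they lie in the part carried by the plasmid is not given in the sources used here. In whole tissue, fewer cells of a type and less RNA per cell cannot be told apart.

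Sequences are given for the probes with the largest differences, though a sequence alone does not tell which RNA was read. They follow in mm9, 5′ to 3′ as the array carries them: first the largest rises and falls of T against C, then the smallest p-values of G against T, and last the probe called between G and C, which was added after its values were seen. Capitals mark runs of 4 or more G and repeats of CT of 4 or more units.
A_30_P01026069 (chr5:74489543-74489602, forward): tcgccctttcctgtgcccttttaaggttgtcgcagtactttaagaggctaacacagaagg
A_30_P01032382 (chr5:35976938-35976997, reverse): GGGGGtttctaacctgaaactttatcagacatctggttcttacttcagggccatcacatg
A_30_P01021199 (chr4:56018129-56018188, reverse): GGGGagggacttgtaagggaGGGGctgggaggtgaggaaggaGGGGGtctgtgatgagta
A_30_P01029802 (chr12:119841346-119841405, reverse): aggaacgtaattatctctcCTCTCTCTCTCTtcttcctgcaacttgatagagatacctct
A_30_P01030790 (chr13:100295975-100296034, forward): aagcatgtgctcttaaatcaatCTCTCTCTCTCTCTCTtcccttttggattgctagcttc
A_30_P01023193 (chr11:69196616-69196675, forward): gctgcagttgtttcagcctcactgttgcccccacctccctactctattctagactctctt
A_30_P01020518 (chr9:78116774-78116833, forward): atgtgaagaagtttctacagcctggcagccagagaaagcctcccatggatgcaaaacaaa
A_30_P01023845 (chr17:95257405-95257464, reverse): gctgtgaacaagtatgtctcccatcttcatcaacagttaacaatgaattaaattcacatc
A_30_P01018332 (chr6:122742141-122742200, reverse): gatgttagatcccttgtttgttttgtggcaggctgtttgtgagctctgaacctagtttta

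The letters GGGG stood in 214 of the 1013 probes (21.1%), in 11.4% of the other lincRNA probes and in 10.1% of the probes of other kinds, all read on the probe strand. The repeat CTCTCTCT stood in 9 of them (0.888%), against 0.263% and 0.231%. Both CT-repeat probes shown above were among the 20 probes called lower in T, and so were 7 probes with GGGG, while 3 of the 12 called higher held GGGG. The T minus C difference had a median of -0.16 over the 214 probes with GGGG, of which 146 (68.2%) were lower in T, and of 0.01 over the 799 without, of which 389 (48.7%) were lower. These letters were looked at after the values were seen, and no test was made of them. The GC content had a median of 45.0% in the members and 43.3% in the lincRNA probes seen on no array, and the polyadenylation signal AATAAA stood in 4.64% and 3.90% of them.

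Some probes share their sequence with a probe of a named gene. Of the 1013, 72 shared a stretch of 20 or more bases with such a probe on either strand, 48 of them in the same orientation. One example is A_30_P01028766 on chromosome 9, all of whose 60 bases match a probe of Gsta1, which encodes a glutathione transferase. A probe of Uck1, a uridine-cytidine kinase, shares 41 bases with the called probe A_30_P01033408, and its T minus C difference of -1.09 (adjusted p = 0.0281, limma) stands beside the -1.10 of the lincRNA probe. Likewise 27 bases of A_30_P01023845 match a probe of Srp19, a part of the signal recognition particle, and 30 bases of A_30_P01025384 match one of Hspe1, a mitochondrial chaperone. In all, 6 of the probes called between T and C shared a stretch with a gene probe. A_30_P01028944 shared 57 bases with one of 9430038I01Rik, and both differed by -0.39. A_30_P01029802 and A_30_P01030790, both at -1.23, matched gene probes only in reverse complement. The first shared 31 and 35 bases with probes of Gm12034 (both -0.04) and 27 with one of Gm5215 (-0.50). The second shared 20 with one of Cd300lf (-0.10). Where all 60 bases match in the same orientation, the array does not tell the intergenic RNA from the RNA of the gene. For shorter or reverse-complement matches, how much of the signal came from the RNA of the gene was not tested.

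Members lay closer to annotated genes than undetected lincRNA probes did. A probe of a named gene on the same strand lay within 10 kb of 252 members (24.9%), of 19.04% of the lincRNA probes seen on 1 to 14 arrays and of 15.7% of those seen on none. Inside the region on the same strand, such a probe was found for 16.4%, 9.80% and 7.76% respectively. Where the nearest gene probe was also well above background on all arrays, the sign of T minus C was the same for 87 of 134 members (64.9%) with the gene on the same strand within 10 kb, for 17 of 33 (51.5%) on the opposite strand within 10 kb and for 151 of 279 (54.1%) with a gene farther away. The loci were spread over all autosomes and the X chromosome, from 29 members on chromosome 19 to 103 on chromosome 6, and the share of a chromosome's lincRNA probes that were members was highest on chromosome 14 (11.3%) and lowest on chromosome 3 (3.79%).

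The comparison of T with C asked which lincRNAs differed in livers of mice given DEN. In limma, 32 of the 1013 probes passed an adjusted p of 0.05, 12 higher and 20 lower in T. Over all 55681 probes of the array 1.25% passed (0.594% higher and 0.657% lower), and over the 12126 other probes seen on all arrays 3.16% did, the same share as the 3.16% of the members. The calls came from 23 loci, 7 higher and 16 lower. At an unadjusted p of 0.05, 242 members passed (23.9%), beside 17.7% of all probes and 27.4% of the other probes seen on all arrays. All values of T lay apart from all values of C for 160 members, which is 15.8%, beside 16.9% of all probes and 23.3% of the other probes seen on all arrays. The called rises measured 0.38 to 1.04 on the log2 scale with a median of 0.57, and the called falls -0.33 to -1.23 with a median of -0.68. The values of all 32 had the same sign on both array slides, which is no test because the same arrays chose them. Slide was also fitted as a term over the 15 arrays, with RNA code as a random block. The slide term passed an adjusted p of 0.05 (limma) for 79 of the 1013 members and 820 of all 55681 probes. At an unadjusted p of 0.05 it passed for 349 members and 7611 of all probes. For T against C on slide 1 alone, 0 members passed (17 of all probes). On slide 2 alone 2 did (100 of all probes), neither of them among the 32.

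The direction of these calls depended on the scaling of the arrays. Arrays were put on 1 distribution (quantile normalization), and with the arrays centred on their medians instead, 191 members passed, all higher in T and none lower, as the median T minus C difference of the members moved from -0.01 to 0.58 while that of all probes was 0.05. Over the whole array 3071 probes then passed, 3049 higher and 22 lower. Before any scaling between arrays, the members' median signal lay 4.73 to 4.95 log2 units above that of all probes on the arrays of T, 3.51 to 4.12 above it in C and 3.49 to 4.75 above it in G. With the scanner software's own processed signal set to its 75th percentile, 0 members passed in limma (155 at an unadjusted p of 0.05), and the median T minus C difference was -0.74 over all probes and 0.08 over the members. The number also rested on single mice: it was 3 without C1, 4 without C2, 74 without C3, 5 without T2, 2 without T3 and 5 without T4.

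**Figure D2:**
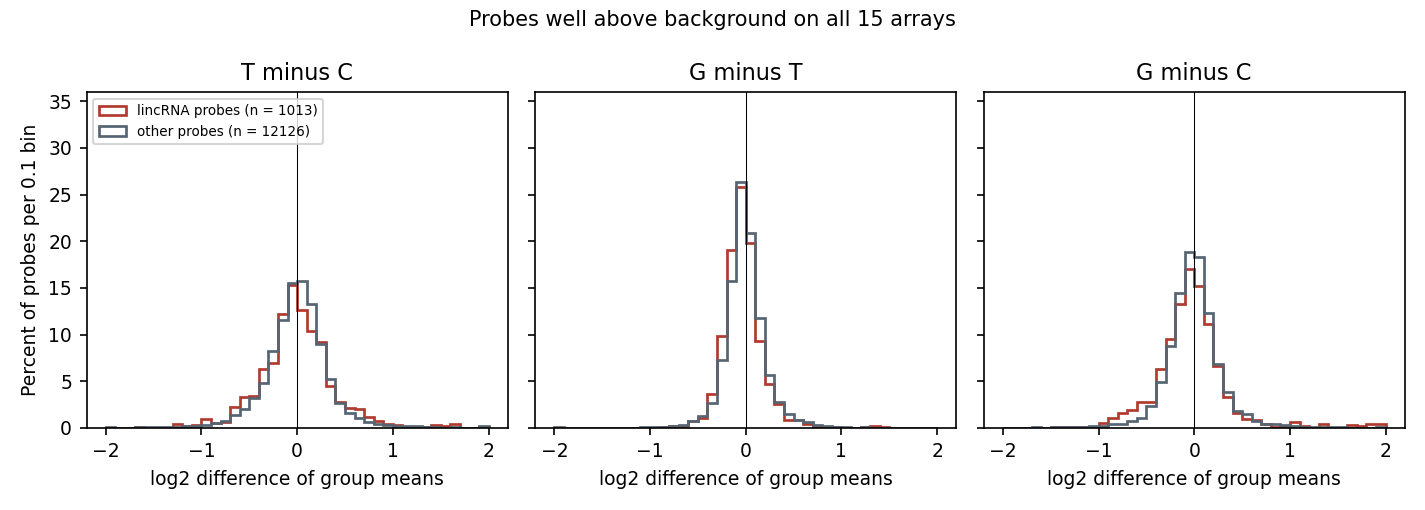
Distribution of the log2 difference of group means (horizontal axis, values beyond 2 placed in the last bin) over the 1013 lincRNA probes and the 12126 other probes seen on all 15 arrays, as percent of probes per bin of 0.1 (vertical axis). The distributions of both kinds of probe largely overlap, with medians of -0.01 and 0.00 for T minus C.

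The largest rise was at Dancr, a long noncoding RNA gene known as a host of small nucleolar RNAs. The probe A_30_P01026069 lies in the region chr5:74487385-74497428 on the forward strand, 0.73 kb from a probe named Dancr on the same strand. Its log2 values were 10.46, 10.43 and 10.68 in C, 11.79, 11.46, 11.62 and 11.37 in T, and 10.40, 10.97, 11.45, 11.19, 11.57 and 11.49 in G. No value of T overlapped with C, and G spread over both. The difference of T minus C was 1.04 ± 0.23 (SE; adjusted p = 0.0485, limma). The neighbouring forward probe A_30_P01031385 differed by 0.99 (adjusted p = 0.0632) and the reverse-strand probe A_30_P01025874 by 1.01 (adjusted p = 0.0647), neither past the threshold. The other reverse-strand members differed in both directions, A_30_P01032527 by 0.88 (adjusted p = 0.0502) and A_30_P01019459 by -0.85 (adjusted p = 0.0620). The Dancr probe itself, seen on 10 arrays, differed by 0.28 (adjusted p = 0.683), and the third forward member of the region, A_30_P01032580, by 0.09.

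A second rise on chromosome 5, A_30_P01032382 in the region chr5:35975265-35982561 on the reverse strand, lay in a locus with members on both strands. Its log2 values were 10.12, 10.63 and 10.28 in C, 10.94, 11.30, 11.41 and 11.80 in T, and 10.37, 10.84, 10.73, 10.49, 10.81 and 11.12 in G. Every mouse of T was above every mouse of C. The difference was 1.02 ± 0.20 (SE; adjusted p = 0.0362, limma). The other reverse-strand member of the locus, A_30_P01021070, differed by 0.74 (adjusted p = 0.0739), and the 4 members on the forward strand by -0.36 to 0.16. The nearest gene probe is that of Acox3, a peroxisomal acyl-CoA oxidase, 20.7 kb away on the opposite strand, which differed by 0.12 (adjusted p = 0.638).

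The locus with most calls lies on chromosome 16, from 43623175 to 43642715, beyond the probe of Zbtb20, a transcription factor known in liver as a repressor of alpha-fetoprotein. It held 16 members, of which 15 had a higher mean in T than in C and 5 passed, all on the forward strand like the Zbtb20 probe, which starts at 43619030. The log2 values of A_30_P01026470 were 10.13, 9.74 and 9.97 in C, 10.30, 10.53, 10.51 and 10.68 in T, and 10.29, 10.45, 10.33, 10.27, 10.40 and 10.34 in G. T and G lay wholly above C. The difference of T minus C was 0.56 ± 0.10 (SE; adjusted p = 0.0242, limma), and the largest called in the locus was that of A_30_P01018802, at 0.71 (adjusted p = 0.0252). Over the 16 probes T minus C ran from -0.18 to 0.71 with a median of 0.41, and G minus T from -0.33 to 0.13 with a median of -0.14 and no call.

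On chromosome 18, both members of the reverse-strand region from 6144775 to 6202232 passed. The probe A_30_P01026558, 1.47 kb beyond the probe of the motor protein gene Kif5b on the same strand, read 6.86, 6.90 and 6.78 in C, 7.35, 7.51, 7.53 and 7.72 in T, and 7.34, 7.17, 7.32, 7.08, 6.97 and 6.96 in G. T was above C and no mouse of G was below C. The difference of T minus C was 0.68 ± 0.11 (SE; adjusted p = 0.0153, limma), that of A_30_P01032370 was 0.72 (adjusted p = 0.0344), and that of the Kif5b probe, seen on 0 arrays, was 0.22 (adjusted p = 0.0781). The remaining rises were smaller: A_30_P01028497 on chromosome 19 rose by 0.49, A_30_P01023945 on the X chromosome, 21.7 kb from the probe of the deubiquitinase gene Usp9x, by 0.39, and A_30_P01023845 on chromosome 17, with its match to Srp19, by 0.39.

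Among the falls, the reverse-strand region chr6:122741562-122743423 had all 3 of its members called. The probe A_30_P01018332 read 8.82, 9.05 and 8.82 in C, 8.03, 7.60, 7.94 and 7.76 in T, and 7.69, 8.002, 7.94, 8.19 and 8.24 in the 5 mice of G with a value, as its spot on array G4 carried an outlier flag. All values of T and G lay below those of C. T minus C was -1.06 ± 0.13 (SE; adjusted p = 0.0118, limma), the smallest adjusted p of the lincRNA probes. The 2 others, A_30_P01033408 and A_30_P01019987, fell by 1.10 and 1.04 on the log2 scale (adjusted p = 0.0167 and 0.0267), the first being the probe that shares 41 bases with Uck1. The nearest gene probe, of Gm5112 at 20.6 kb, was not above background on any array and differed by 0.09.

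The largest falls were at 3 loci, with the probes of Klf4, D230030E09Rik and Map1b as the nearest gene probes. How close the genes themselves lie was not read. A_30_P01021199, on the reverse strand of chr4:56013597-56020622 and 478 kb from the probe of the transcription factor Klf4, read 8.09, 8.06 and 7.68 in C, 6.55, 6.87, 6.71 and 6.72 in T, and 7.19, 6.91, 6.59, 7.47, 7.52 and 7.80 in G. Its T minus C difference was -1.23 ± 0.23 (SE; adjusted p = 0.0299, limma), with T below C in every mouse and G reaching into both. A_30_P01029802 on the reverse strand of chr12:119825125-119850750 read 9.36, 9.56 and 8.63 in C, 8.10, 8.44, 7.79 and 7.49 in T, and 7.996 to 8.72 in G. A_30_P01030790 on the forward strand of chr13:100286676-100296051 read 9.61, 10.12 and 8.93 in C, 8.63, 8.71, 8.04 and 7.94 in T, and 8.48 to 9.07 in G. These are the probes with the CT repeat, and both differed by -1.23 (adjusted p = 0.0379 and 0.0410). The mouse C3 was the lowest of C in both.

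The other called falls measured 1 log2 unit or less. On chromosome 14, A_30_P01022635, with a G-rich sequence in a region that holds a probe of Wdfy4, differed by -0.98, A_30_P01032968 by -0.68 and A_30_P01028346 by -0.56. On chromosome 12, A_30_P01018716 differed by -0.67 and A_30_P01025384, with its match to Hspe1, by -0.43. On chromosome 11, A_30_P01021799 differed by -0.73 and A_30_P01023193 by -0.58, and on chromosome 10, A_30_P01028794 differed by -0.65, 0.63 kb from the probe of the antiproliferation gene Btg1 on the opposite strand, which differed by 0.16 (adjusted p = 0.496). The adjusted p-values of these 8 ran from 0.0151 to 0.0491. With the arrays centred on their medians, A_30_P01023193 and A_30_P01025384 turned to 0.30 and 0.56, so their direction holds only relative to the scaling used here.

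**Figure D3:**
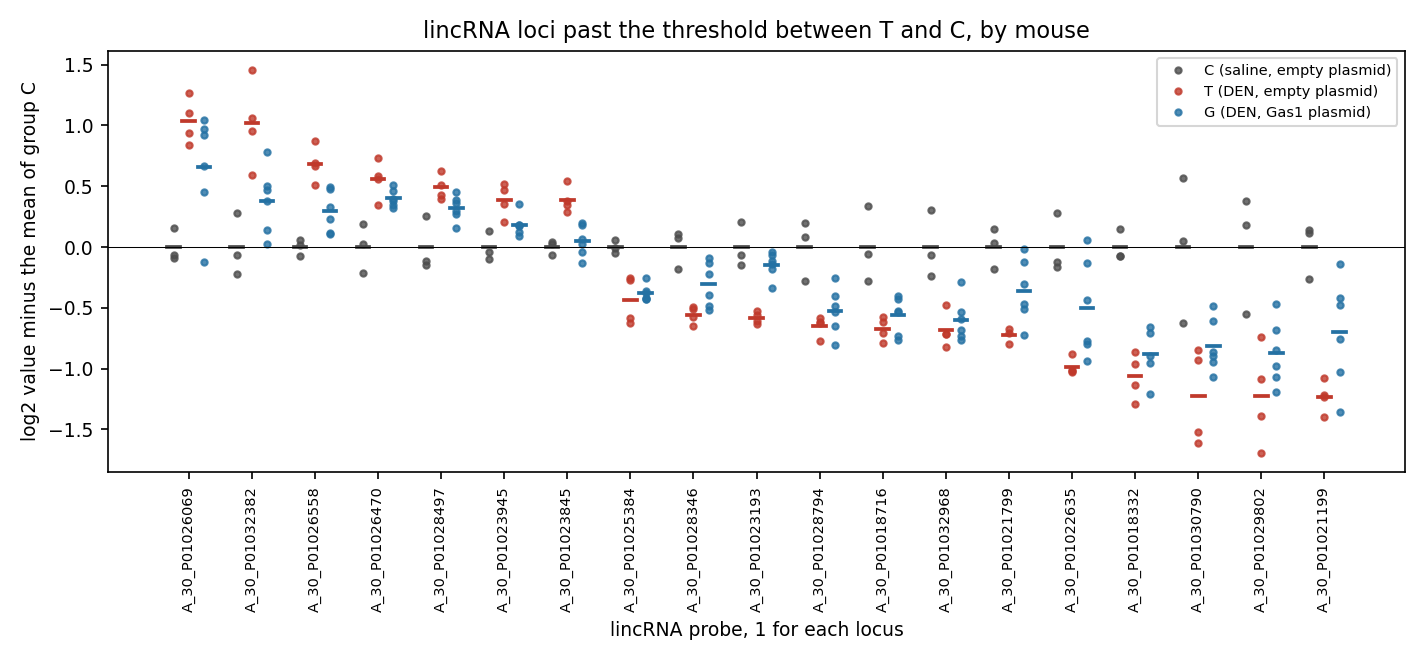
Log2 value of each mouse minus the mean of group C (vertical axis) for 1 called probe of each of 19 loci (horizontal axis), ordered by the difference of T and C. Points are mice, 3 of C, 4 of T and 6 of G at most, and bars are group means. In all 19 no mouse of T overlaps with C.

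The mean of G lay between those of C and T for all 32 called probes, nearer to C in 10 and nearer to T in 22. As C and T chose these probes, this is a description with no test. Of the 32, 19 had an unadjusted p under 0.05 for G minus T and 28 for G minus C, and these comparisons share their mice with that of T and C.

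The comparison of G with T asked which lincRNAs differed when Gas1 was delivered after DEN. No member passed an adjusted p of 0.05 in limma, where 0.0413% of all probes did (0.0126% higher and 0.0287% lower in G). At an unadjusted p of 0.05, 94 members passed, 40 higher and 54 lower in G, which is 9.28% beside 9% of all probes and 16.4% of the other probes seen on all arrays. The groups did not overlap for 19 members (1.88%, beside 2.59% and 4.16%). With a plain t-test, 0 members passed after Benjamini-Hochberg adjustment, and 69 passed unadjusted. With cyclic loess 1 member passed, and 2 passed with all 15 arrays as separate samples, with slide as a term over 15 arrays and RNA code as a random block, with dim probes left out, or without T1.

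The members nearest the threshold are given as not passing. A_30_P01023193, in chr11:69196530-69197001 on the forward strand, read 8.63, 8.61, 8.68 and 8.72 in T and 9.06, 9.20, 9.17, 9.10, 8.90 and 9.13 in G, beside 9.18, 9.45 and 9.09 in C. No mouse of G overlapped with T, and G overlapped with C. G minus T was 0.43 ± 0.07 (SE; adjusted p = 0.0663, limma). A_30_P01023845 and A_30_P01026558 differed by -0.34 and -0.39 (adjusted p = 0.138 and 0.170), and the 27 bases of Srp19 in the first belong to a gene probe whose own G minus T was -0.42 (adjusted p = 0.0445). A_30_P01025696, in a region with a probe of Saysd1, differed by -0.22 and A_30_P01032813 on chromosome 1 by -0.52 (adjusted p = 0.199 and 0.207).

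The member with the second smallest p of G against T lies among genes of glutathione transferases, enzymes that conjugate electrophiles and that liver cells use in detoxification. A_30_P01020518 is on the forward strand of chr9:78104935-78116974, between the probes of Gsta1 and Gsta2 in mm9. It read 10.13, 8.37, 9.26 and 9.19 in T, 10.54, 10.57, 10.75, 10.22, 10.81 and 10.80 in G, and 10.74, 10.63 and 10.07 in C. G lay above T in every mouse, with T1 the nearest to G. G minus T was 1.38 ± 0.26 (SE; adjusted p = 0.105, limma) and T minus C -1.24 (adjusted p = 0.0672), neither past the threshold. The other members of the locus, A_30_P01018914 and A_30_P01028766, differed by 0.82 and 0.97 between G and T. The Gsta1 probe identical to the latter differed by 0.94 (adjusted p = 0.205), and a probe of Gm10639, a gene that RefSeq places between Gsta1 and Gsta2 and that shares 29 bases with it, by 1.42 (adjusted p = 0.127).

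Against C, 1 member passed in G, the probe A_30_P01018332 of chromosome 6 described above, at -0.88 ± 0.13 (SE; adjusted p = 0.0391, limma), where 0.122% of all probes passed (0.0467% higher and 0.0754% lower in G). At an unadjusted p of 0.05, 252 members passed, 57 higher and 195 lower in G, which is 24.9% beside 11.4% of all probes and 21.8% of the other probes seen on all arrays. That mostly lower direction depended on the scaling, as the median G minus C difference of the members was -0.05 here and 0.48 with the arrays centred on their medians, where 586 members passed unadjusted and 0 adjusted. The groups did not overlap for 69 members (6.81% beside 4.98% of all probes and 9.36% of the other probes seen on all arrays). The call was lost without C1, C2, T3, T4, G2 or G3. Without C3, 54 members passed, all lower in G, as were 338 of the 446 probes that passed over the whole array, and without G6, 2 members passed. Next were A_30_P01024012 on chromosome 14 at -0.34, A_30_P01018058 on chromosome 13 at -0.35, A_30_P01032968 at -0.60, A_30_P01018716 at -0.56 and A_30_P01025384 at -0.38 (adjusted p = 0.0653 to 0.103, not passing). The second and the last of these 5 turned to 0.13 and 0.48 with the arrays centred on their medians.

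Loci with many members allowed a comparison of probes that read neighbouring stretches. Among pairs of members in 1 locus on the same strand that do not overlap, 776 of 1051 (73.8%) had the same sign of T minus C, as had 28 of 34 overlapping pairs (82.4%) and 69.9% of the pairs on opposite strands. The sign was the same over all members in 102 of the 204 loci with more than 1 member. In the locus chr17:26911032-26917047, nearest to Crebrf, a regulator of the CREB3 factors, all 9 members were lower in T than in C by 0.01 to 0.25 and higher in G than in T by 0.22 to 0.37, none of them past the threshold. In the locus chr10:126817846-126856582, nearest to the inhibin gene Inhbc, all 7 were lower in T, with differences from -0.62 to -0.03, and none passed. Over the 11 members near Zfp652 on chromosome 11, T minus C ran from -0.16 to 0.22. Members higher and lower in T were also counted in the remaining loci of the 12 with most members. These were 3 and 7 near Adk, 4 and 6 near Borcs8, and 2 and 6 near Mfsd4b3-ps. They were 7 and 1 near Pura, 0 and 7 near Gm6712, and 5 and 2 near Rps15a-ps7. None of these members passed.

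**Figure D4:**
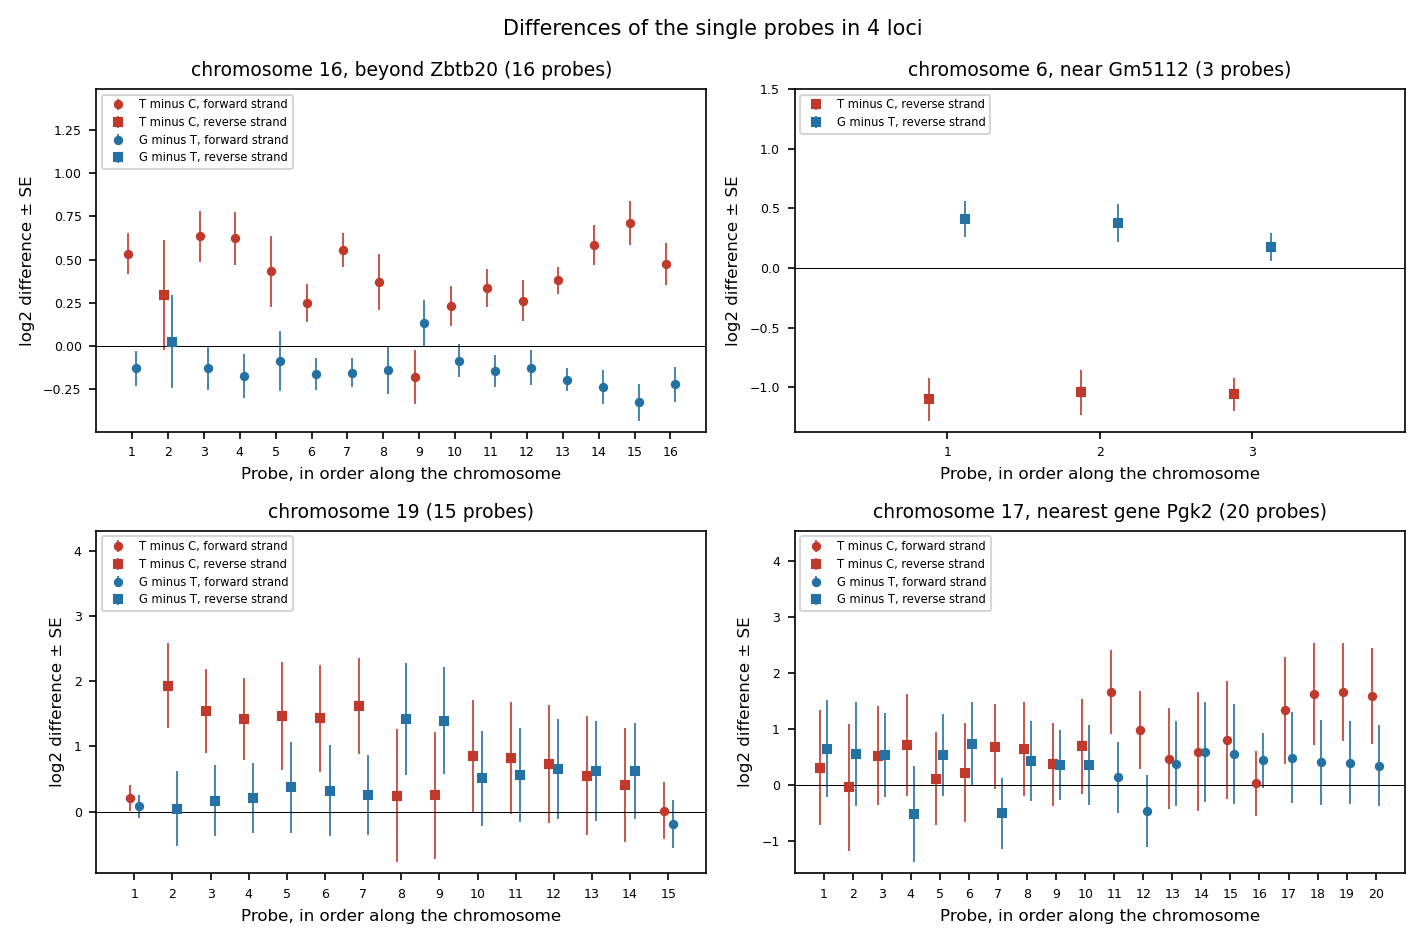
Differences of group means with their SE on the log2 scale (vertical axis) for each member of 4 loci, in order along the chromosome (horizontal axis), for T minus C in red and G minus T in blue, with circles for forward and squares for reverse probes. T minus C is above 0 for 15 of 16 probes on chromosome 16 and below -1.0 for all 3 on chromosome 6, while most SE on chromosomes 17 and 19 are wider.

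The members that varied most within groups came from a pair of loci. The SD within groups had a median of 0.21 over all members and exceeded 1 in 29, of which 18 lay in chr17:39960567-39992817 and 10 in chr19:5771425-5848475. The first held 20 members, 10 on each strand, and is the locus with most members. The nearest gene probe, that of Pgk2, lies 359 kb or more from its members. Only genes with a named and positioned probe on the array could be found this way. Which RNA the members of this locus read was therefore not settled. The second held 15 members, 13 of them on the reverse strand.

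The mice stood in a similar order in both loci. Taking each probe from its mean over mice, the median over the 20 members on chromosome 17 was -1.26, -1.08 and 0.40 in C1, C2 and C3, and 1.87, -1.37, -0.48 and -0.22 in T1 to T4. In G1 to G6 it was -1.24, -0.54, 1.39, 1.90, 1.57 and -0.33. The mice T1, G3, G4 and G5 were the high ones, and the groups overlapped. On chromosome 19 the same medians over 15 members were -1.60, -1.61 and 0.04 in C, 1.804, -1.04, -0.23 and -0.24 in T, and -0.90, -0.23, 1.88, 1.00, 1.41 and -0.36 in G. The same 4 mice were the highest here too.

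No member of these loci passed in any comparison. On chromosome 19, T minus C was above 0 for all 15 members, from 0.01 to 1.93 with a median of 0.82, and G minus T for 14 of them with a median of 0.37. The largest T minus C was that of A_30_P01020935, at 1.93 ± 0.65 (SE; adjusted p = 0.148, limma), with 8.43, 8.68 and 10.48 in C and 12.47, 10.16, 10.90 and 10.99 in T. On chromosome 17, T minus C was above 0 for 19 of 20 members with a median of 0.67. The probe with the largest SD within groups, A_30_P01027833, read 9.70, 10.29 and 11.85 in C, 13.66, 10.02, 10.51 and 10.67 in T, and 9.74 to 13.61 in G, so that mice of 1 group differed by more than 3 log2 units. The number of lincRNA probes well above background was 2640, 3224, 5080 and 4481 on the arrays of the 4 high mice. It was 1912, 1314, 1986 and 2257 on those of C1, C2, T2 and G1, the lowest ones. The other mice lay between. Their arrays gave 4537 and 2409 for mouse C3, 2189 for T3, 2671 and 2074 for mouse T4, 1595 for G2 and 4117 for G6. The part of this number in the values of these loci was not tested.

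**Figure D5:**
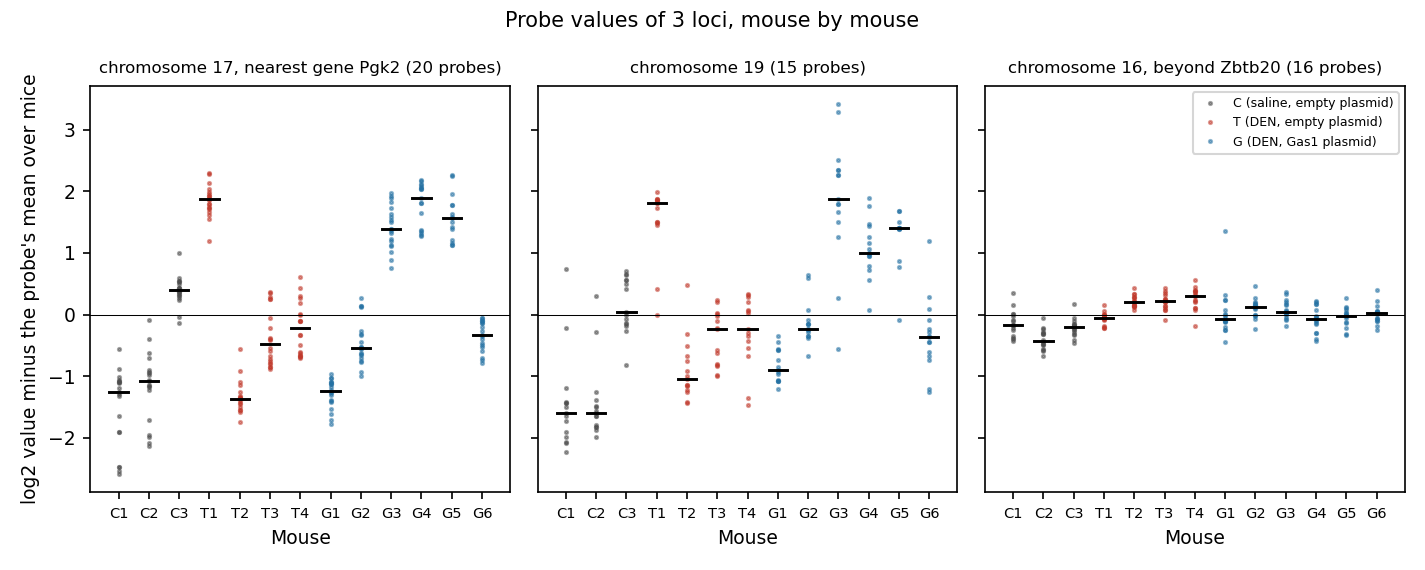
Log2 value of each member minus that probe's mean over the 13 mice (vertical axis) by mouse (horizontal axis) in 3 loci. Points are probes and black bars their median. On chromosomes 17 and 19 the bars of T1, G3, G4 and G5 lie at 1.00 or higher and those of C1, C2 and T2 at -1.04 or lower, while on chromosome 16 all bars lie between -0.43 and 0.30.

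Long noncoding RNA genes with an established name were also read through their gene probes. Of 44 such genes listed, 19 had a probe under their symbol, with 32 probes in all, of which 7 were well above background on all arrays. None of the 32 passed in limma in any comparison, and 5, 1 and 4 passed an unadjusted p of 0.05 for T minus C, G minus T and G minus C. The snoRNA hosts Gas5 and Zfas1 differed by 0.50 and -0.27 on the probes seen on all arrays (adjusted p = 0.251 and 0.345). Of the lincRNA members, 8 lay in the region of a gene on that list on the same strand: 3 at Dancr, 2 at Tug1, 2 at Mir17hg and 1 at Mirg. At Tug1, A_30_P01020465 differed by 0.27 and A_30_P01026040 by 0.13, beside 0.23 for the gene probe that shares 58 bases with the first. At Mir17hg, the host of a microRNA cluster, the differences were 0.34 and -0.47, and at Mirg 0.65, none past the threshold.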

How the data were processed

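RNA was labelled with an oligo-dT primer and hybridized to 1-colour Agilent arrays with 62976 spots. The authors deposited the scanner output, which gives the intensity of each spot (mean signal and median background) and the processed intensity of Feature Extraction 10.7.3.1 (mm9 design), and a table of log2 values after normexp and quantile normalization. From the deposited intensity, values were rebuilt by normexp (offset 50), log2 and quantile normalization over spots that are not controls. Outlier-flagged spots (218 to 3692 per array) were treated as missing, and no spot was saturated. Against the authors' log2 table the median absolute difference was 0.00282. Arrays of 1 RNA code were averaged. Groups came from the sample records. One limma 3.58.1 model (R 4.3.3) with 3 groups was fitted to 55681 probes of 13 mice, with Benjamini-Hochberg adjustment over all of them. On simulated data it recovered 74% of changes of 1 log2 unit and 99% of changes of 2, with 9 false calls. The simulated noise was independent between probes and mice, without effects of slide or scaling. Changes were placed only in probes seen on all arrays, so these shares need not hold for the real data. P-values measure the spread between these mice, and their number limits the precision.

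The members, lists and rules were chosen with earlier results of these data known. Named in the text, at 1 probe per locus, are up to 12 largest rises and falls among called members whose groups do not overlap (the 6 smallest p where fewer than 6 passed), the 12 loci with most members, the 6 members with the largest SD within groups, listed noncoding genes, and the nearest gene probe within 1 Mb. For the 1 rise on chromosome 18 no sequence is given. Alternatives covered background correction, scaling, dim probes, slides, arrays, regions and mice left out. Of the lincRNA members, 112 lack a value in 1 or more mice. Gene names are those of the array, and no mm9 annotation was used here. The genes beside 1 locus on chromosome 19 are not reported here.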

Additional observations from a re-analysis of the deposited data

Results flagged for a closer look

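In 6 of 59 group tests of the named probes, the highest mouse stood farther from the others than Dixon's 95% value allows, which chance does in about 1 of 20 groups. The share of flags cannot be read against that, because some of these probes were chosen for their large SD within groups and neighbouring probes share their RNA. In the highly variable loci of chromosomes 17 and 19, mouse T1 stood above the other mice of T: at 13.05 for A_30_P01030943 (others 9.63 to 10.10), at 10.07 for A_30_P01019037 (others 7.12 to 7.61) and at 9.83 for A_30_P01025818 (others 6.94 to 7.38). For called probes, mouse T2 stood at 6.90 for A_30_P01022635 (others 6.74 to 6.76), a gap smaller than the T minus C difference. Mouse G1 stood at 9.38 for A_30_P01023945 (others 9.12 to 9.21) and at 11.20 for A_30_P01025384 (others 11.02 to 11.09).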

How the results depend on the processing

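The 32 members called between T and C (697 over all probes) became 191 (3071) with median scaling, 6 (167) with cyclic loess, 0 (56) with the processed signal at its 75th percentile, 85 (3298) with 15 arrays as separate samples, 61 (1455) with slide as a term over 15 arrays and RNA code as a random block, 0 (17) on slide 1 alone and 2 (100) on slide 2 alone. They became 59 (1031) with dim probes left out, 18 (683) with the probes of a region averaged, and 0 (0) with a plain or a Welch t-test (148 and 101 members unadjusted). With 1 mouse left out the number ranged from 2 to 74 (70 to 1042 over all probes). All 32 passed in the fit with slide term and random block, which changed both choices at once. The 0 members called between G and T became 1 with cyclic loess and 2 with 15 arrays, with slide term and random block or with dim probes left out, and 0 to 2 with 1 mouse left out. The 1 called between G and C became 0 with median scaling, cyclic loess, the processed signal, slide 1 or slide 2 alone, averaged regions and both t-tests, 6 with 15 arrays or with slide term and random block, and 0 to 54 with 1 mouse left out. With the replicate number as a block, 27 members passed for T against C, 0 for G against T and 0 for G against C. Whether the numbers pair the mice is not stated in the sources used here, and 10 pairs with 1 number cannot decide it. The deviations of these pairs had correlations from -0.385 to 0.336, and 5 of 10 were highest with their own number. Over the named probes, 4 values turned under median scaling: A_30_P01023193 and A_30_P01025384 to 0.30 and 0.56 for T minus C, and A_30_P01018058 and A_30_P01025384 to 0.13 and 0.48 for G minus C. The causes were not tested. Of the other values of named probes, 635 kept their direction and side of the threshold, 274 kept only the direction, and 17 newly passed. The 635 include probes that did not pass here and stayed so. Each of the 32 calls of T against C was kept in only 10 to 24 of 30 settings.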
